A study of Mus musculus with 24 samples.

Results

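The T-box genes Tbx1, Tbx2, Tbx3, Tbx4, Tbx5, Tbx15 and Tbx18 and the gene Hand2 were followed in skin and skin wounds of 3 body sites, 8 of the 18368 genes in the expression table. They were chosen by their measured levels in these libraries, for ventral and limb-field patterns, so their levels by site are given as a description with no test. The change from unwounded skin to wound within the same mice was not the stated ground of that choice and was tested. Wound libraries were among those seen and earlier results on the change were known, so its independence of the choice cannot be shown.

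RNA was sequenced from full-thickness skin of outbred CD-1 mice, aged 7 weeks and coordinated in telogen, the resting phase of the hair cycle. Each of 12 mice was wounded at a single site with punches of 2 mm, once on the cheek or at paired places on the abdomen or the back. The wound and adjacent unwounded skin of the same mouse were taken at day 3, giving 6 groups of 4 libraries: unwounded and wound skin of abdomen, back and cheek. All mice had been shaved under anaesthesia and analgesia, and the labels name no genetic alteration. Every mouse gave skin of 1 site, so differences between sites are also differences between mice.

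T-box proteins are transcription factors that share a DNA-binding domain, and Hand2 is a basic helix-loop-helix factor that pairs with E proteins. In the embryo, Tbx5 and Tbx4 mark the lateral plate mesoderm of the forelimb and hindlimb fields, and Hand2 acts in the flank and posterior limb mesoderm, the heart and the ventral part of the pharyngeal arches. Tbx3 and Tbx2 are mainly repressors with roles in limb and mammary patterning, Tbx15 and Tbx18 act in dermis and limb mesenchyme, with Tbx15 setting the dorsoventral coat boundary, and Tbx1 acts in the pharyngeal arches, in branchial muscle and in hair follicle stem cells.

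The members lie on 6 chromosomes (RefSeq, GRCm38). Tbx3 (chr5:119670534-119684724) and Tbx5 (chr5:119796514-119885220) were neighbours on the + strand, 112 kb apart, and so were Tbx2 (chr11:85832615-85841948) and Tbx4 (chr11:85886367-85916097), 44.4 kb apart. The others were at chr3:99240348-99354260 (Tbx15, + strand), chr8:57320983-57324517 (Hand2, + strand), chr9:87702800-87731260 (Tbx18, - strand) and chr16:18580979-18590671 (Tbx1, - strand). Neighbours did not have like levels: Tbx3 was above 1 FPKM in all 24 libraries while Tbx5 ranged from 0 to 2.77 FPKM. Tbx2 ranged from 0.78 to 2.06 FPKM and Tbx4 from 0.2 to 0.9 FPKM. Tbx3 and Tbx5 nevertheless both had their highest mean in abdomen, in unwounded skin and in wounds.

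The 250 bases before the start site are shown for Hand2 and Tbx18, 2 of the members with a RefSeq promoter (GRCm38.p6). Hand2 had the largest wound effect in cheek, and Tbx18 was the member with a called rise in back. Capitals mark the letters CATCTG on either strand, a form of E-box described for HAND factors. The sequences read 5′ to 3′ on the strand of the gene, Hand2 from chr8:57320733-57320982 (+ strand) and Tbx18 from chr9:87731261-87731510 (- strand).
Hand2: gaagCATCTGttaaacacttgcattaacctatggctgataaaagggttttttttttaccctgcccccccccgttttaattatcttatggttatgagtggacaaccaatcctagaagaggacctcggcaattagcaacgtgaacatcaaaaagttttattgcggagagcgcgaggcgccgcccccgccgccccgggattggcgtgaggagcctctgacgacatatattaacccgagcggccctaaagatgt
Tbx18: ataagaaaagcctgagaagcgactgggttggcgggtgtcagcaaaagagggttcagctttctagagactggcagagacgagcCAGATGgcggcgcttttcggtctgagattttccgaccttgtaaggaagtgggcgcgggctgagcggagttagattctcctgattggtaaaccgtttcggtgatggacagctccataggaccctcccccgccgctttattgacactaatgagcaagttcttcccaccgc
CATCTG began at position -246 from the start site of Hand2, and at -168 of Tbx18 it stood on the opposite strand, read here as its reverse complement. It is one case of the general E-box CANNTG, so the 2 motifs overlap. Promoters of 4 members matched by symbol, and the Tbx4 promoter (chr11:85896515-85896764, + strand) also held CATCTG, at -111, while neither of the 2 Tbx1 promoters did. The Tbx4 window and 1 of the 2 Tbx1 windows (chr16:18588900-18589149) lie inside the gene spans given above. Their positions are thus not counted from the outer start of the gene. Of 32851 promoters of this length, 14.4% held CATCTG and 66.2% held CANNTG on either strand. The T-box core GGTGTG, found in 16.3% of all promoters, was not among the letters of these 5 windows. The GC content was 49.2% for Hand2 and 54.0% for Tbx18, beside a median of 52.4% over all promoters.

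Levels are FPKM, that is, fragments counted per length of transcript and relative to the library's mapped total, a scale on which genes can be compared. Tbx15 was the most abundant member, with a median of 20.3 FPKM over the 24 libraries, a level that 21.0% of all genes reached or passed. Tbx1 followed with a median of 9.45 FPKM. Tbx3, Tbx2 and Tbx18 had medians of 2.07, 1.57 and 1.53 FPKM, and Hand2, Tbx4 and Tbx5 had medians below 1 FPKM (0.765, 0.425 and 0.405). All 8 members passed the filter of at least 0.5 FPKM in at least 4 libraries, Tbx4 with 9 libraries, Tbx5 with 11 and Hand2 with 13, the last 2 through abdomen and cheek alone.

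The libraries were not of like tissue make-up. The summed level of 6 skeletal muscle genes (Acta1, Ckm, Myh4, Mylpf, Tnnt3, Myh1) was 444 and 2367 FPKM in unwounded abdomen of mice 2 and 3, between 9924 and 20087 FPKM in the other 10 unwounded libraries and between 1579 and 6056 FPKM in the wounds. The labels give telogen for all mice, and most libraries had little of the growing-follicle keratins, but Krt71 was at 1651 FPKM in unwounded cheek of mouse 4, at 27.3 FPKM in unwounded back of mouse 2 and at 3.06 FPKM in unwounded cheek of mouse 3. Dermal fibroblast genes were high throughout, with a summed level of 10 genes between 6306 and 23902 FPKM, so the libraries held the dermis their labels name. Values for these lists stand beside the members they moved with, and in bulk samples fewer cells of a type and less RNA per cell cannot be told apart.

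**Figure D1:**
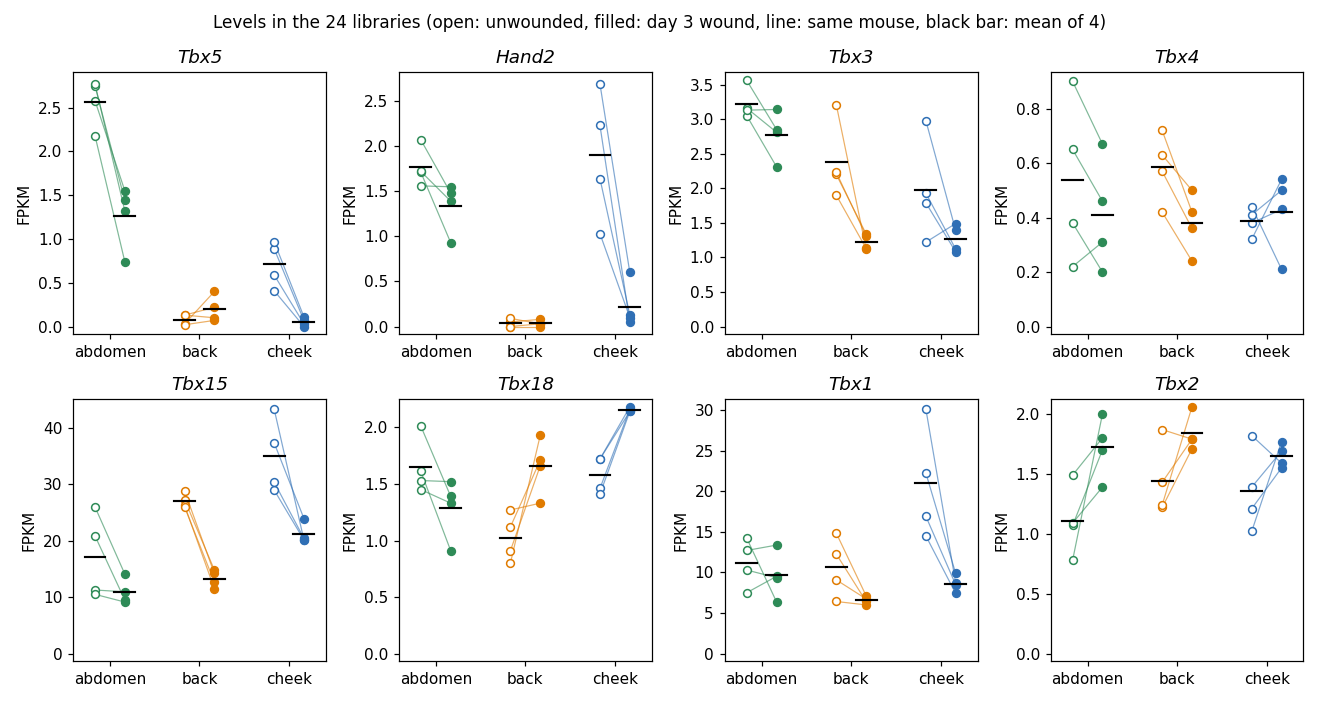
FPKM (vertical axes, linear, each gene with its own scale from 0) of the 8 members in unwounded (open) and wound (filled) skin of abdomen, back and cheek, with a line joining the libraries of 1 mouse and a black bar at the mean of 4. Tbx5 and Hand2 stay at or below 0.40 FPKM in all 8 back libraries, and Tbx15 is lower in the wound than in the unwounded skin of each of the 12 mice.

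Tbx5, the forelimb-field factor, had an abdominal level. In unwounded abdomen it stood at 2.18, 2.75, 2.77 and 2.58 FPKM in mice 1 to 4 (mean 2.57 ± 0.274, SD, n = 4). In unwounded cheek it was at 0.89, 0.41, 0.59 and 0.97 FPKM (0.715 ± 0.261), and in unwounded back at 0.03, 0.02, 0.13 and 0.13 FPKM (0.0775 ± 0.0608). The 3 sites did not overlap, in the order abdomen, cheek, back. In the wounds Tbx5 was at 0.74, 1.44, 1.32 and 1.55 FPKM in abdomen, at 0.40, 0.07, 0.22 and 0.10 in back and at 0.07, 0, 0.03 and 0.11 in cheek. Abdomen stayed apart from the other sites, whereas cheek and back wounds overlapped and did not differ beyond their spread.

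Tbx5 fell in the wounds of abdomen and cheek, the sites where it was present. The fitted wound effect, the difference wound minus unwounded of log2(FPKM + 0.5) within mice, was -0.82 (SE 0.15, limma adjusted p = 0.0017) in abdomen and -1.11 (SE 0.15, adjusted p = 0.000135) in cheek. The wound mean was 49.1% of the unwounded mean in abdomen and 7.34% in cheek, and the wound was lower in 8 of 8 mice of these sites. In back, where the gene was near 0, the effect was 0.25 (SE 0.15, adjusted p = 0.182). The pseudocount of 0.5 FPKM understates changes at such low levels: with 0.1 in its place the cheek effect was -2.41.

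Hand2 shared the absence from back and differed from Tbx5 in cheek. Unwounded cheek had 1.64, 1.03, 2.23 and 2.69 FPKM (1.90 ± 0.721), and unwounded abdomen had 1.71, 1.56, 2.07 and 1.72 FPKM (1.77 ± 0.216). Unwounded back had 0.05, 0, 0 and 0.09 FPKM. Cheek and abdomen overlapped and did not differ beyond their spread, and back lay below both.

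In the wounds, abdomen and cheek were apart. Hand2 was at 0.93, 1.55, 1.48 and 1.39 FPKM in abdominal wounds (1.34 ± 0.279) and at 0.13, 0.10, 0.05 and 0.60 FPKM in cheek wounds (0.22 ± 0.255), groups that did not overlap. Back wounds had 0.08, 0, 0.03 and 0.03 FPKM, within reach of the lower cheek wounds. Hand2 fell in cheek by 1.74 on the log2 scale (SE 0.16, limma adjusted p = 5.3e-06), to 11.6% of the unwounded mean. In abdomen the effect was -0.31 (SE 0.16, adjusted p = 0.143), with the wound lower in 4 of 4 mice and a mean of 75.8% of the unwounded one, and in back it was 0.00 (adjusted p = 0.995).

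The moderated F test asked whether the wound effect of a gene differed between the 3 sites. Hand2 was 1 of 3 genes called, with Abcc3 and Gm21320, which is 0.0208% of the 14423 genes tested (F = 35.4, limma adjusted p = 0.0426 by the Benjamini-Hochberg method). Mouse by mouse, the changes in cheek were -1.76, -1.35, -2.31 and -1.54 and those in abdomen were -0.63, -0.01, -0.38 and -0.23, so that each cheek change was larger than each abdomen change. The members had been chosen for differences between sites, Hand2 entered the fit through abdomen and cheek, and a gene near 0 in back could not fall there. By the unadjusted p, 1867 genes (12.9%) were under 0.05. In the fit without abdomen mouse 1, the F test called 315 genes in place of 3. With 1 mouse left out, the Hand2 call held in 3 of 12 fits, those without abdomen mouse 1, abdomen mouse 2 or cheek mouse 2 (adjusted p 0.0183 to 0.126 over the 12). It was also lost with a pseudocount of 0.1 (adjusted p = 0.0666), without a term for the mouse (0.0775) and without back mouse 2, cheek mouse 3 and cheek mouse 4 (0.374), which had high hair follicle scores (the mean log2 deviation of 6 follicle genes from their means over the libraries), a fit in which 0 genes were called. Hand2 in unwounded cheek was highest in mice 4 and 3, with 2.69 and 2.23 FPKM, whose hair follicle scores were 6.49 and 1.47 against -0.385 and -0.372 in mice 1 and 2. Without the 3 mice the cheek effect was -1.56 (limma adjusted p = 0.0012), and the part of the growing follicles in the level of Hand2 was not otherwise tested.

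A test of cheek against abdomen alone, added after Hand2 was seen to be near 0 in back, gave a difference in wound effect of -1.43 for Hand2 (SE 0.22, limma adjusted p = 0.101). It called 1 gene of 14423 (0.00693%) and 0 members, while 1715 genes had an unadjusted limma p under 0.05, Hand2, Tbx1 and Tbx18 among them. Without abdomen mouse 1 the adjusted p of Hand2 was 0.0172, in a fit that called 209 of all genes tested. Tbx5 came next among the members in the F test over the 3 sites, with an adjusted p of 0.0721, and its effects differed by -0.29 (SE 0.21, adjusted p = 0.589) between cheek and abdomen, an amount within the error.

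Tbx3, the limb and mammary repressor next to Tbx5, was less restricted. Unwounded abdomen had 3.16, 3.05, 3.13 and 3.56 FPKM (3.23 ± 0.228), unwounded back 1.90, 3.21, 2.2 and 2.23 (2.39 ± 0.570) and unwounded cheek 1.93, 1.79, 1.22 and 2.98 (1.98 ± 0.734). Abdomen lay above cheek in all libraries, while back overlapped with both. Abdominal wounds had 2.81, 2.31, 3.14 and 2.85 FPKM, against 1.13, 1.12, 1.34 and 1.31 in back wounds and 1.12, 1.08, 1.49 and 1.39 in cheek wounds. The abdominal wounds were thus apart from the other wounds, with a mean 2.27 times that of back and 2.19 times that of cheek.

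Tbx3 fell in back wounds by 0.72 on the log2 scale (SE 0.16, limma adjusted p = 0.0032), to 51.4% of the unwounded mean and in 4 of 4 mice. In cheek it fell by 0.45 (SE 0.16, adjusted p = 0.0471) in 3 of 4 mice, a call that with 1 mouse left out held in 2 of 12 fits, those without back mouse 2 or cheek mouse 3 (adjusted p 0.00699 to 0.201). In abdomen the effect was -0.19 (SE 0.16, adjusted p = 0.396). The differences between these effects did not pass the F test (adjusted p = 0.454). The summed level of 8 mammary epithelium genes was between 6.19 and 22.3 FPKM over all libraries, with medians of 11.7, 7.86 and 10.2 FPKM in unwounded abdomen, back and cheek, and its part in the Tbx3 values was not tested.

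Tbx4, the hindlimb-field gene beside Tbx2, was low everywhere, between 0.22 and 0.90 FPKM in unwounded libraries and between 0.20 and 0.67 FPKM in wounds. Its group means, 0.380 to 0.585 FPKM, had SDs of 0.0512 to 0.30, and all pairs of sites overlapped. No wound effect passed the test as fitted. Abdomen had -0.17, back -0.30 and cheek 0.04, with -0.14 (SE 0.081, limma adjusted p = 0.136) over the 3 sites. The back effect passed with median-ratio scaling (-0.35, adjusted p = 0.0463), quantile normalization (-0.39, adjusted p = 0.0279) and moderation without trend (adjusted p = 0.0495), and the effect over the sites passed with quantile normalization (-0.22, adjusted p = 0.0231). The forelimb-field and hindlimb-field genes therefore had unlike levels in abdominal skin, at a mean of 2.57 FPKM for Tbx5 and 0.538 FPKM for Tbx4.

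Tbx15 had its lowest means in abdomen, where the unwounded libraries of mice 2 and 3 were also low in skeletal muscle genes. Unwounded abdomen had 20.89, 11.30, 10.53 and 26.02 FPKM (17.2 ± 7.54), unwounded back 27.30, 28.83, 26.31 and 26.03 (27.1 ± 1.27) and unwounded cheek 37.39, 43.40, 29.03 and 30.43 (35.1 ± 6.65). The sites did not overlap, although the highest abdomen library (26.02 FPKM) and the lowest back library (26.03 FPKM) differed by 0.01 FPKM. In the wounds abdomen had 9.52, 10.97, 9.16 and 14.12 FPKM, back 14.84, 14.22, 11.52 and 12.68, and cheek 23.96, 20.16, 20.16 and 20.43. Cheek wounds lay above all other wounds, with a mean of 21.2 FPKM, and abdomen and back wounds overlapped.

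Tbx15 fell in the wounds of all 3 sites and in 12 of 12 mice. The effect was -1.0 in back (SE 0.15, limma adjusted p = 0.00022), -0.70 in cheek (SE 0.15, adjusted p = 0.0035) and -0.55 in abdomen (SE 0.15, adjusted p = 0.0157). Wound means were 49.1%, 60.4% and 63.7% of the unwounded means. The abdominal call rested on mice 1 and 4, which went from 20.89 to 9.52 and from 26.02 to 14.12 FPKM, whereas mouse 2 went from 11.30 to 10.97 and mouse 3 from 10.53 to 9.16. Without mouse 1 the adjusted p was 0.0877, and without mouse 4 it was 0.0834.

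The same abdomen mice stood apart in skeletal muscle genes. A muscle score, how far log2(FPKM + 0.5) of the 6 genes lay on average from their means over the 24 libraries, was 1.09 and 1.30 in unwounded abdomen of mice 1 and 4, and -3.65 and -1.36 in that of mice 2 and 3. It was between 0.826 and 1.92 in unwounded back and cheek and between -2.02 and 0.0921 in all wounds. Within unwounded abdomen Tbx15 was thus low in the libraries with low muscle scores. All 6 muscle genes fell over the mean of the sites, with a median effect of -1.33. By site, 4 of 6 fell in back (median -2.23), while 0 passed limma's adjusted p in cheek (median -1.56, 4 by the unadjusted p under 0.05) and 0 in abdomen (median -0.44, 0 by the unadjusted p). In abdomen the muscle score was higher in the wound than in the unwounded skin of mouse 2 (-3.65 to -1.42) and mouse 3 (-1.36 to -0.78), where Tbx15 was slightly lower in the wound. The part of muscle tissue in the Tbx15 values was not tested.

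**Figure D2:**
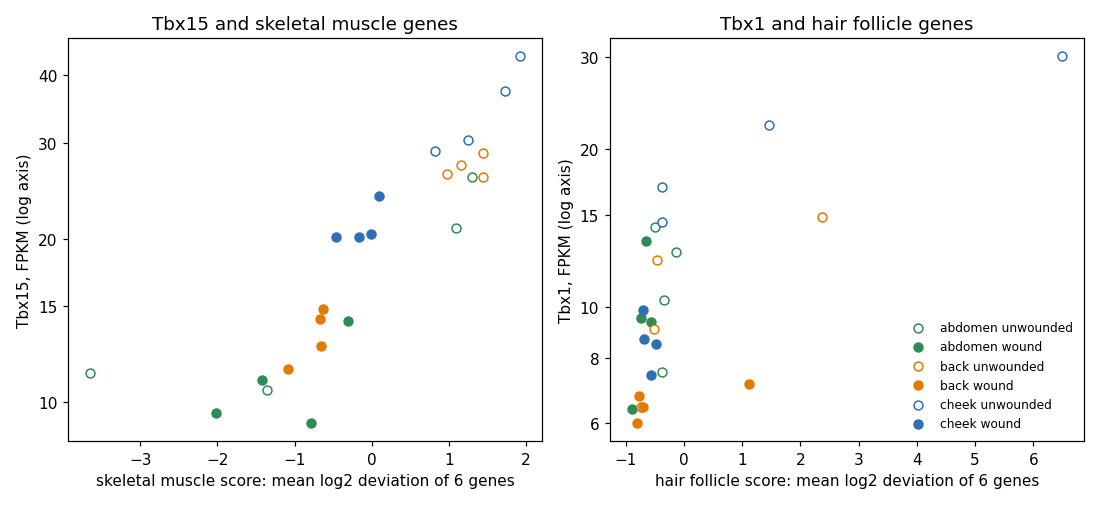
Left, Tbx15 in FPKM (log axis) against the skeletal muscle score, and right, Tbx1 in FPKM (log axis) against a hair follicle score, each score being the mean log2 deviation of 6 genes, with 1 point per library (open unwounded, filled wound, colours by site). The 2 abdomen libraries with muscle scores of -3.65 and -1.36 have 11.30 and 10.53 FPKM of Tbx15, and the library with a hair follicle score of 6.49 has the highest Tbx1 level, 30.12 FPKM.

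Tbx18, a factor of dermal papilla and mesenchymal precursors, had fitted wound effects of opposite sign between sites, a difference that did not pass the F test. Unwounded abdomen had 1.53, 2.01, 1.61 and 1.45 FPKM (1.65 ± 0.249), unwounded cheek 1.72, 1.46, 1.41 and 1.72 (1.58 ± 0.166) and unwounded back 0.80, 1.12, 1.27 and 0.91 (1.03 ± 0.210). Back lay below both other sites, which overlapped. The wounds had 1.52, 1.39, 0.91 and 1.33 FPKM in abdomen, 1.93, 1.71, 1.33 and 1.66 in back and 2.18, 2.16, 2.14 and 2.14 in cheek. Cheek wounds were above all other wounds, and the order of the means, from abdomen first in unwounded skin, had abdomen last in wounds.

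Tbx18 rose in back wounds by 0.50 on the log2 scale (SE 0.14, limma adjusted p = 0.0114), to 162% of the unwounded mean. In cheek the effect was 0.36 (SE 0.14, adjusted p = 0.0637) and in abdomen -0.27 (SE 0.14, adjusted p = 0.155). The wound was higher in 4 of 4 back mice and 4 of 4 cheek mice and lower in 4 of 4 abdomen mice. The F test of the difference between sites did not pass (adjusted p = 0.233), and the back call was lost without back mouse 1 (adjusted p = 0.0670).

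Tbx1, with roles in branchial muscle and follicle stem cells, was highest in unwounded cheek, at 16.92, 14.51, 22.25 and 30.12 FPKM (21.0 ± 6.92). Unwounded abdomen had 14.22, 7.51, 12.71 and 10.30 FPKM (11.2 ± 2.93) and unwounded back 12.27, 14.84, 9.09 and 6.43 (10.7 ± 3.67). Cheek was above all abdomen libraries and overlapped with back through a single pair, back mouse 2 with 14.84 and cheek mouse 2 with 14.51 FPKM. The wounds had 6.37, 9.53, 13.37 and 9.36 FPKM in abdomen, 6.43, 7.13, 6.75 and 6.01 in back and 8.50, 7.42, 9.88 and 8.69 in cheek. Abdominal wounds overlapped with both other sites, and cheek wounds lay above back wounds.

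Tbx1 fell in cheek wounds by 1.19 on the log2 scale (SE 0.22, limma adjusted p = 0.0013), to 41.2% of the unwounded mean in 4 of 4 mice. In back it fell by 0.60 (SE 0.22, adjusted p = 0.0393), a call that was lost without abdomen mouse 4, back mouse 1, 2 or 3, or cheek mouse 3 (adjusted p 0.0101 to 0.171 with 1 mouse left out). In abdomen the effect was -0.21 (SE 0.22, adjusted p = 0.483), and without mouse 1 it was 0.09. The 2 highest Tbx1 values were in unwounded cheek of mice 4 and 3, whose hair follicle scores over 6 genes (Krt25, Krt27, Krt71, Krt35, Lgr5, Krt15) were 6.49 and 1.47. Unwounded back of mouse 2, with a score of 2.36, had the highest back value. Without these 3 mice the cheek effect was -0.94 (adjusted p = 0.0475) and the back effect -0.46 (adjusted p = 0.165), and the part of the growing follicles in the level of Tbx1 was not otherwise tested.

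Tbx2, a repressor related to Tbx3, was the member with higher levels in wounds at each site. Unwounded libraries ranged from 0.78 to 1.87 FPKM and wounds from 1.39 to 2.06 FPKM, and all pairs of sites overlapped in both states. Over the 3 sites Tbx2 rose by 0.33 on the log2 scale (SE 0.089, limma adjusted p = 0.0060), in 10 of 12 mice. It rose in abdomen, where the wound mean of 1.72 FPKM was 156% of the unwounded mean of 1.11 FPKM (0.48, SE 0.15, adjusted p = 0.0304). The abdominal call was lost without mouse 2 (adjusted p = 0.162), mouse 3 (adjusted p = 0.0820) or the 3 mice with high hair follicle scores (adjusted p = 0.0582). It was also lost in the 8 abdomen libraries alone (limma adjusted p = 0.0758). The changes were 0.21, 0.97, 0.49 and 0.25 in mice 1 to 4, larger in mice 2 and 3, whose unwounded muscle scores were low. The part of muscle in the Tbx2 values was not tested. In back and cheek the effects were 0.28 (adjusted p = 0.155) and 0.23 (adjusted p = 0.270).

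**Figure D3:**
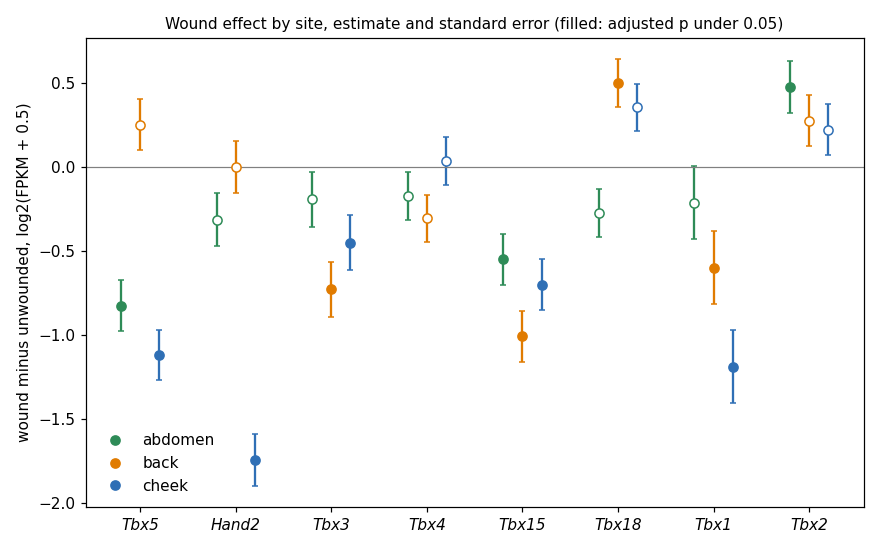
Fitted wound effects (vertical axis, wound minus unwounded in log2(FPKM + 0.5), bars are standard errors) of the 8 members in abdomen, back and cheek, with filled points where the limma adjusted p is under 0.05. Hand2 in cheek has the largest effect (-1.74), and Tbx18 is above 0 in back and cheek and below 0 in abdomen.

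The members whose libraries separated by site were counted in both states. The libraries of unwounded back and abdomen did not overlap for 4 of 8 members (Tbx15 higher in back, with Tbx5, Tbx18 and Hand2 lower), beside 13.0% of the 14423 genes tested. For cheek and abdomen they were 4 of 8 (Tbx1 and Tbx15 higher in cheek, Tbx3 and Tbx5 lower), beside 10.5% of genes, and for cheek and back 4 of 8 (Tbx5, Tbx15, Tbx18 and Hand2, all higher in cheek), beside 14.3%. In wounds the counts were 3 of 8 for back and abdomen (Tbx3, Tbx5 and Hand2 lower in back), beside 9.04% of genes. They were 5 of 8 for cheek and abdomen (Tbx15 and Tbx18 higher in cheek, Tbx3, Tbx5 and Hand2 lower), beside 18.8%, and 3 of 8 for cheek and back (Tbx1, Tbx15 and Tbx18 higher in cheek), beside 21.0%. Since the members were chosen for such differences, nothing is read from these counts.

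Over the mean of the 3 sites, 5 of 8 members fell in the wound (Tbx15, Hand2, Tbx5, Tbx1 and Tbx3), beside 29.4% of all genes tested, and 1 rose (Tbx2), beside 33.3%. The effects of the members that fell were -0.75 for Tbx15 (limma adjusted p = 1.1e-05), -0.68 for Hand2 (3.0e-05), -0.56 for Tbx5 (0.000107), -0.66 for Tbx1 (0.00057) and -0.45 for Tbx3 (0.0010). Tbx18 (0.20, adjusted p = 0.0509) and Tbx4 did not pass. The median effect of the 8 members was -0.51, beside 0.02 over all genes tested.

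By site, 2 members fell and 1 rose in abdomen, beside 16.0% and 16.9% of genes. In back 3 fell and 1 rose, beside 17.9% and 28.0%. In cheek 5 fell, beside 16.9%, and 0 rose, beside 19.7%, while Tbx18 was the 1 member with a positive effect and an unadjusted limma p under 0.05. The median effects of the members were -0.24, -0.15 and -0.57 in abdomen, back and cheek, where all genes had -0.01, 0.07 and 0.01. Other cell type genes moved in the same wounds. Of the 10 dermal fibroblast genes, 6 fell and 2 rose over the sites, with medians of -0.61, -0.47 and -0.35 in abdomen, back and cheek, and all 5 neutrophil genes rose, with a median of 3.45. All 5 macrophage genes and 5 of 8 epidermal genes also rose, while all 6 adipocyte genes and 2 of 6 hair follicle genes fell. Of the remaining lists, 4 of 5 endothelial genes rose and 1 fell, 2 of 8 smooth muscle and pericyte genes rose and 4 fell, and of 5 mammary epithelium genes tested 1 rose and 1 fell. The part of these changes in the effects of the members was not tested.

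The rest of the T-box family was low or absent, apart from the broadly expressed Mga, a MAX dimerization protein with a T-box domain that ranged from 1.87 to 4.27 FPKM. Of the 10 other T-box genes in the table, 6 never passed 0.11 FPKM: Tbr1 (at most 0.10), T (0.09), Tbx10 (0.11), Tbx19 (0.02), Tbx20 (0.01) and Tbx22 (0.02). Eomes and Tbx21, the T-box factors of natural killer cells and T cells, rose in wounds. Eomes went from at most 0.11 FPKM in unwounded skin to between 0.27 and 1.19 FPKM in wounds, and Tbx21 from at most 0.30 to between 0.34 and 1.04 FPKM, with no overlap. Their effects over the sites were 0.84 (SE 0.097, limma adjusted p = 9.4e-06) and 0.69 (SE 0.092, adjusted p = 3.3e-05), and both rose at each of the 3 sites. Mga fell by 0.27 (SE 0.070, adjusted p = 0.0045), and Tbx6 (0.11 to 0.74 FPKM) had an effect of 0.19 (adjusted p = 0.0875). Eomes and Tbx21 passed the filter of 0.5 FPKM through wound libraries alone, so a rise was favoured in advance and their p-values carry no weight. With them, 2 of the 4 genes tested rose and 1 fell, beside 33.3% and 29.4% of all genes. Nothing is read from this count.

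**Figure D4:**
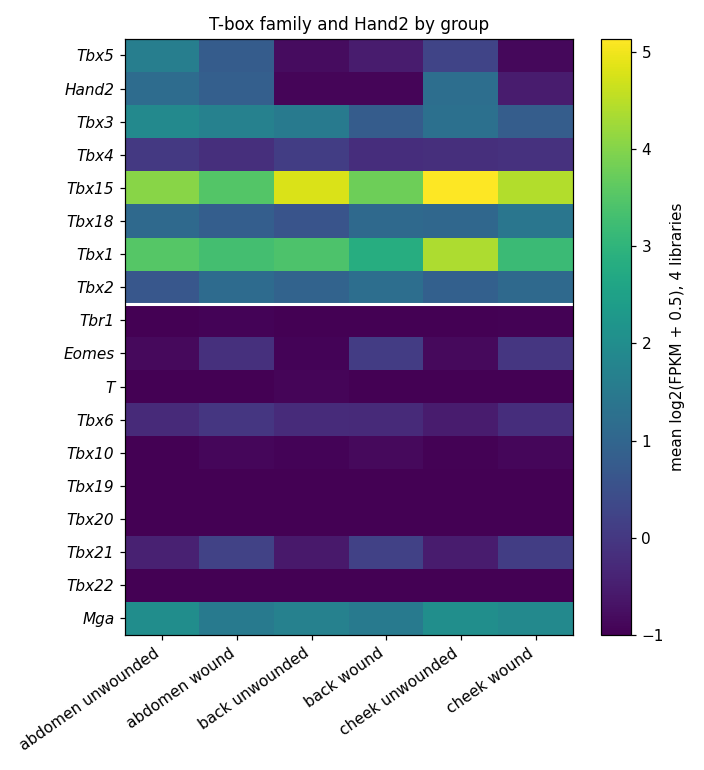
Mean of log2(FPKM + 0.5) over 4 libraries (colour) for the 8 members (above the white line) and the 10 other T-box genes (below it) in the 6 groups. Of the other genes, 6 are at the floor in all groups, and Eomes and Tbx21 are brighter in the 3 wound columns.

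The wider pathway was a list of 30 genes of the lateral plate and limb field, and 22 of them were tested between sites of unwounded skin. Pitx1, the hindlimb factor upstream of Tbx4, was higher in back than in abdomen (1.11 on the log2 scale, SE 0.24, limma adjusted p = 0.0287), 1 of 22 genes beside 0.530% of the 13956 genes tested. It was at 1.10, 2.09, 0.95 and 1.29 FPKM in unwounded back, at 0.59, 0.02, 0.41 and 0.46 in abdomen and at 0.30, 0.27, 0.19 and 0.20 in cheek. Back lay above all other unwounded libraries, the reverse of Tbx5. In cheek against back Pitx1 was lower (-1.29, SE 0.24, adjusted p = 0.0218), 1 of 22 beside 0.494%, and 0 genes were higher beside 0.559% (8 by unadjusted limma p under 0.05). Pitx1 passed the filter of 0.5 FPKM in this fit through the back libraries. The filter thus favoured a higher level in back, and its 2 calls carry that limit.

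Fgf10, the mesenchymal signal that Tbx5 activates in the forelimb bud, was lower in back than in abdomen (-0.67, SE 0.14, limma adjusted p = 0.0267), 1 of 22 beside 2.14%. Its levels were 1.99, 2.45, 1.83 and 1.92 FPKM in unwounded abdomen, 0.96, 1.30, 1.14 and 0.99 in back and 1.41, 1.85, 2.02 and 2.04 in cheek. Back was below both other sites, as for Tbx5 and Hand2, although cheek minus back did not pass (0.54, adjusted p = 0.0893). Osr2, a zinc-finger factor of palate and limb joints, was lower in cheek than in abdomen (-0.81, SE 0.19, adjusted p = 0.0429), 1 of 22 beside 1.23%, with 0 higher beside 1.33% (6 by unadjusted limma p). These 3 genes were the calls over the pairs of sites. The number of calls was 0 without back mouse 4, 1 without abdomen mouse 2, back mouse 1 or back mouse 2, and 5 without abdomen mouse 4. The median of all genes tested was -0.12 for back minus abdomen, 0.03 for cheek minus abdomen and 0.14 for cheek minus back, against which these differences are to be read.

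In the wounds, 13 of 22 limb field genes fell over the mean of the sites, beside 29.4% of all genes, and 3 rose, beside 33.3%, with a median effect of -0.27 beside 0.02 over all genes tested. Fgf10 fell by 0.65 (SE 0.098, limma adjusted p = 8.9e-05), Osr2 by 0.95 (SE 0.11, adjusted p = 1.7e-05), Isl1, a hindlimb and cardiac progenitor factor, by 0.88 (adjusted p = 0.00062) and Grem1, a BMP antagonist of the limb bud, by 0.61 (adjusted p = 0.0015). Isl1 was at 1.96, 0.05, 0.22 and 1.28 FPKM in unwounded abdomen of mice 1 to 4, low in mice 2 and 3, whose muscle scores were low, and in these mice its wound change was 1.0 and 0.08. The part of muscle in it was not tested. Pitx1 rose by 1.03 (SE 0.17, adjusted p = 0.00020), with Prrx2 and Osr1. By site 6 fell and 2 rose in abdomen (beside 16.0% and 16.9% of all genes), 4 and 1 in back (17.9% and 28.0%) and 9 and 1 in cheek (16.9% and 19.7%). The count of falls in back was near the share over all genes, while the count of rises there was below it.

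The partners of these factors were compared last. Of 12 E proteins, Twist factors, Groucho corepressors, histone deacetylases and Nkx2-5, 11 were tested, and 0 differed between sites of unwounded skin by limma's adjusted p (by the unadjusted p, Tcf12, Hdac2 and Tcf4 were under 0.05 for at least 1 pair of sites). The levels of Twist1 ranged from 29.4 to 54.9 FPKM and those of Twist2 from 26.1 to 44.1 FPKM, each above every level of Hand2, to which they are related. Over the sites 2 rose in wounds (Tle3 by 0.39 and Hdac1 by 0.33) and 2 fell (Tcf12 by 0.18 and Tle1 by 0.23), beside 33.3% and 29.4% of all genes.

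The genes whose log2(FPKM + 0.5) was most like that of each member were ranked by Pearson r over the 24 libraries, which share sites, mice and tissue make-up, so the values are descriptions. Tbx15 was closest to AI464131, Pde4dip and Clcn1, each at r = 0.98. Clcn1 encodes the skeletal muscle chloride channel, and was at 3.20, 0.13, 0.19 and 3.99 FPKM in unwounded abdomen of mice 1 to 4, low in the mice where Tbx15 was low. Tbx1 was closest to Fam117a (0.92), Lhx2 (0.89) and Krt75 (0.88), the last 2 a follicle stem cell factor and a keratin of the follicle companion layer. Krt75 had its highest level, 156 FPKM, in unwounded cheek of mouse 4, the library with the highest Tbx1.

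Hand2 was closest to Cyp1a1 (r = 0.89), Cyp2j12 (0.88) and Aadacl4 (0.88). Cyp1a1, a xenobiotic-metabolizing enzyme, had means of 26.2, 11.9 and 22.9 FPKM in unwounded abdomen, back and cheek, the same order of back below the others. Unlike Hand2, it kept 61.3% of its unwounded mean in cheek wounds. Tbx5 was closest to Mill1 (0.91), Tmem164 (0.90) and Echdc1 (0.89), and Mill1 had its highest mean, 25.5 FPKM, in unwounded abdomen. The closest genes were weaker for Tbx18 (4930402H24Rik, 0.87, Pi4ka, 0.86, and Ptpn9, 0.83), Tbx3 (Ifnlr1, 0.83, Klk1, 0.81, and Cyp2b23, 0.79), Tbx2 (Map7d1, 0.79, Ddah1, 0.78, and Gpx7, 0.78) and Tbx4 (Katnal2, 0.78, Kcne1l, 0.72, and Mtss1l, 0.71).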

How the data were processed

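RNA-seq libraries of unwounded and wound skin were grouped by the site, treatment and mouse given in the labels (4 mice per group, 24 libraries, 12 mice). The titles repeat the same mouse numbers at each site. Equal numbers at different sites were taken as different animals, because each mouse was wounded at a single site. FPKM values were deposited by the authors per gene and library, rounded to 2 decimals. Per the labels, the submitters' processing notes name HISAT2, Bowtie2 (2.2.5), RSEM (1.2.12) and the build GRCm38. FPKM values carry no fragment counts, so depth and counting error are unknown. Summed FPKM was 490791 to 608843 per library. The number of per-sample columns left unused was 0. A second table, with the authors' own DESeq2 comparisons (log2 changes and their p-values), was not used.

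Linear models were fitted to log2(FPKM + 0.5) in limma (3.58.1, statmod 1.5.0, R 4.3.3), with a variance trend and robust moderation, for genes that reached 0.5 FPKM in 4 or more libraries. The wound fit had a term for each mouse and gave the effect per site, their mean, and an F test of their differences over 14423 genes. List genes were compared between sites in the 12 unwounded libraries (13956 genes). Benjamini-Hochberg adjustment ran over all genes tested, with a threshold of 0.05, and limma's tests are two-sided. Both libraries of a mouse came from the same animal per the labels. Their deviations from the group means correlated across genes with r from -0.03 (abdomen mouse 1) to 0.53, and with means of -0.18 to -0.01 for other mice. Deviations from a group mean cancel within the group, so a positive r with the same mouse largely forces a negative mean with the others. The second range is therefore no separate evidence of the pairing.

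Members and gene lists were chosen with earlier results of these data known. The genes named were all members, list genes that differed between sites, other T-box genes above 0 FPKM and the 3 genes most alike to each member by Pearson r. Other pathway genes, marker genes, Abcc3 and Gm21320 were named after their values were seen. The fits were tested on simulated data. Alternatives were pseudocounts of 0.1 and 1, a filter of 1 FPKM or none, quantile normalization, median-ratio scaling, plain moderation with neither trend nor robustness, no mouse term, the 8 libraries of a site alone, a threshold of 0.001 and each mouse left out in turn. The comparison of cheek with abdomen wound effects and the fit without 3 mice with high hair follicle scores were added after seeing the data. Promoter windows and positions were taken from RefSeq (GRCm38.p6).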

Additional observations from a re-analysis of the deposited data

Results flagged for a closer look

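Stray libraries were sought in 48 groups of 4 libraries, the 8 members in 6 groups, and chance marks about 1 in 20 such groups. Of these, 2 stood out. Tbx15 in the cheek wound of mouse 1 was at 23.96 FPKM, above 20.16, 20.16 and 20.43 FPKM in the other cheek wounds (gap over range 0.929). Hand2 in the cheek wound of mouse 4 was at 0.60 FPKM, above 0.05 to 0.13 FPKM in the others (gap over range 0.855), and was still below the lowest abdominal wound, at 0.93 FPKM.

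The F test of the wound effect between sites gave a limma adjusted p of 0.0426 for Hand2. Hand2 was chosen for its site pattern and is near 0 in back, where it could not fall, and cheek against abdomen alone gave an adjusted p of 0.101. The F call was lost in 9 of the 12 fits with 1 mouse left out. The wound effect of Tbx18 had one sign in every mouse of a site and opposite signs between sites: 0.50 in back, 0.36 in cheek and -0.27 in abdomen on the log2 scale. The test of that difference did not pass (adjusted p = 0.233), and the change in abdomen mouse 1 was -0.007.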

How the results depend on the processing

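Over the mean of the 3 sites, 4 to 7 members were called in all alternatives, beside 6 as reported. At a threshold of 0.001 the members called were 0 (abdomen), 1 (back) and 2 (cheek), and the F test called 0. With the 8 libraries of a site alone, 1 was called in abdomen and 3 in cheek. The F test called 0 members with a pseudocount of 0.1, without the replicate block (Hand2 adjusted p = 0.0775) and without the 3 mice with high hair follicle scores, and 2 with moderation without trend and robustness (Hand2 and Tbx5). Leaving out 1 mouse gave 0 to 3 members in the F test, 2 to 3 for abdomen, 2 to 4 for back (2 without back mouse 1), 4 to 5 for cheek and 0 to 5 list genes between sites. The 3 in the F test came without abdomen mouse 1, and were Hand2, Tbx5 and Tbx1, in a fit that called 315 of all genes tested.

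Without the replicate block, which pairs the libraries of a mouse, the calls of Tbx15 in abdomen (adjusted p = 0.0528) and Tbx1 in back (0.0557) were also lost, and Tbx18 gained calls over the sites (0.0264) and in cheek (0.0363). Signs turned only for effects that had passed no test. Hand2 in back was -0.00324 with median-ratio scaling, -0.032 with quantile normalization and -0.026 to 0.054 when a mouse was left out. Tbx4 in cheek was -0.019 with quantile normalization and -0.063 (without cheek mouse 2) to 0.186 with 1 mouse left out. Tbx1 in abdomen ranged from -0.387 to 0.088 (without abdomen mouse 1), and cheek minus abdomen for Tbx15 from -0.336 to 0.015 (without abdomen mouse 2). The calls of Tbx5 in abdomen and cheek, Hand2 and Tbx1 in cheek, Tbx15 in back and cheek and Tbx3 in back held at the threshold of 0.05 in the alternatives that tested them. Tbx5 was not tested in the 8 cheek libraries alone, where it did not pass the filter. With 4 mice per site and no fragment counts, the members at or near 0 FPKM cannot be separated from each other.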
